A study of Lytechinus variegatus with 23 samples.

Results

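The comparison described here sets embryos of the sea urchin Lytechinus variegatus that were exposed to alizarin red against control embryos, both taken whole and collected at 18 hours post fertilisation (hpf). It rests on 5 of the 23 bulk mRNA libraries of a time course with collections at 12, 18, 24 and 30 hpf, and the libraries were chosen by their labels. The control group at 18 hpf held 3 libraries, replicates A, B and C, and the alizarin group held 2, replicates B and C, while every other group of the time course held 3. No genotype, strain or transgene was given for any group, and the dose of alizarin and the start of exposure are not given in the sources used here. Nothing in the labels tells whether the replicates came from separate cultures or crosses. The p-values therefore reflect the scatter of the sequenced libraries alone, some of which may be technical.

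Alizarin red is an anthraquinone dye that binds calcium and stains mineralised skeleton. In this urchin the larval skeleton is secreted by primary mesenchyme cells, which leave the vegetal plate, fuse into a syncytium along the blastocoel wall and lay down calcium carbonate within an organic matrix of spicule proteins, guided by signals from the ectoderm such as VEGF. The gut, the pigment cells, the muscle and coelom precursors and the first neurons form over the same period. Catalase, the enzyme named in the study's title, breaks down hydrogen peroxide.

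Total counts were 10038238, 9404030 and 10092561 in control libraries A, B and C and 9475030 and 9857376 in alizarin libraries B and C. Markers of the skeletogenic cells (Sm50), the gut (Endo16), pigment cells (Pks1) and cilia (Tektin2) were read in all 5 libraries. Control library C stood apart: on the first principal component of log2 CPM (36.9% of the variance) it lay at 99.6, against -49.5 to -7.95 for the other 4. The second component (24.9%) put control A and B at 53.6 and 46.3, control C at -12.3 and the alizarin libraries at -44.2 and -43.5. Ribosomal protein genes took 14.9% of the counts in control C and 15.8% in alizarin C, but 9.44%, 8.57% and 9.78% in control A, control B and alizarin B. Values without control C, or without another library, are given beside the results that they move most.

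Expression is given as CPM (counts relative to the library total after TMM scaling). A log2 fold change above 0 means a higher level with alizarin, and SE is its standard error. No gene passed the edgeR quasi-likelihood test at 18 hpf: 0 of 18419 genes tested (0%) had an adjusted p under 0.05, and the smallest was 0.224. At an unadjusted p under 0.05 there were 435 higher genes (2.36%) and 610 lower genes (3.31%) in the alizarin libraries, and without alizarin B there were 358 lower ones. DESeq2 called 51 genes, 9 higher (0.0489%) and 42 lower (0.228%), of which 49 had an unadjusted p under 0.05 in edgeR. The libraries of the groups did not overlap for 2039 higher genes (11.1%) and 1895 lower genes (10.3%). All 18 hpf values below are thus descriptions of these libraries.

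The precision was low. The smallest unadjusted p was 1.8e-05. By its own rank alone, the first ranked gene needed 2.7e-06 to be called over 18419 genes. Under the Benjamini-Hochberg adjustment that gene could also be called at a larger p if genes ranked after it passed. The median 95% interval reached 1.03 log2 units to each side of the estimate, and 1.93, 0.945 and 0.731 for genes of low, middle and high expression (equal numbers of genes). The median absolute log2 fold change was 0.346, within that interval. The median SE was 0.497 at 18 hpf against 0.450, 0.443 and 0.451 at 12, 24 and 30 hpf, and the median log2 fold change of all genes was -0.01.

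The gene with the smallest p was Acsf2_3 (L_var_00267), a member of the acyl-CoA synthetase family, which activates fatty acids. It was at 27.0, 29.8 and 41.9 CPM in control libraries A, B and C and at 9.31 and 10.2 CPM in alizarin libraries B and C. The groups did not overlap, but the rule that chose the first 12 genes in each direction required this, so it adds no support. The log2 fold change was -1.75 (SE 0.32, edgeR adjusted p = 0.224, DESeq2 adjusted p = 3.7e-05). Acsf2_3 also fell at 12 hpf (-2.64, SE 0.29, edgeR adjusted p = 0.00026) and at 24 hpf (-1.19, SE 0.27, adjusted p = 0.0379), contrasts of other libraries. When the 18 hpf libraries were left out of the fit, the adjusted p at 24 hpf was 0.0603.

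MyoD (L_var_26700), named for the regulator that directs cells to skeletal muscle in vertebrates, was at 9.25, 11.8 and 11.0 CPM in the control libraries. It was at 0 and 0.0986 CPM in the alizarin libraries. That is 357 reads against 1, a ratio of 231 with an exact 95% interval of 41.1 to 9129 for counting error alone (edgeR adjusted p = 0.224). Fewer cells of a type and less RNA per cell cannot be told apart in whole-embryo libraries. Mean MyoD levels of control and alizarin embryos were 0.03 and 0.06 CPM at 12 hpf, 4.59 and 2.1 CPM at 24 hpf and 3.36 and 0.86 CPM at 30 hpf. Neither later difference passed the test (adjusted p = 0.632 and 0.232).

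Pitx1_1 (L_var_25830), a paired-type homeobox gene, showed the same kind of values. Control libraries held 3.08, 3.92 and 7.17 CPM and alizarin libraries 0 and 0.0986 CPM. The reads were 148 against 1, a ratio of 95.6 (exact 95% interval 16.9 to 3799, counting error alone; edgeR adjusted p = 0.277). Its means were 2.7 and 0.98 CPM in control and alizarin embryos at 24 hpf.

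Both genes named Ldha, for lactate dehydrogenase, which interconverts pyruvate and lactate, were lower in every alizarin library. The first (L_var_27187) was at 26.3, 47.5 and 66.6 CPM in controls and at 4.35 and 9.76 CPM with alizarin (log2 fold change -2.73, SE 0.52, edgeR adjusted p = 0.231). The second (L_var_27188) was at 8.54, 15.8 and 21.7 CPM and at 0.78 and 3.65 CPM (-2.80, SE 0.65, adjusted p = 0.308). By the rule that chose them, neither overlapped between the groups. They share a symbol, so reads may be split between near-identical copies and each level is uncertain.

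MtL (L_var_13109) was at 169.9, 181.9 and 278.0 CPM in controls and at 35.9 and 86.6 CPM with alizarin (-1.78, SE 0.41, edgeR adjusted p = 0.308). It fell at 24 hpf (-2.29, SE 0.36, adjusted p = 0.00336) and at 30 hpf (-2.35, SE 0.36, adjusted p = 0.00101). Mtmmpc (L_var_26192) was at 89.2, 58.1 and 85.5 CPM against 21.7 and 27.2 CPM (-1.66, SE 0.37, adjusted p = 0.277) and fell at 24 hpf (-1.53, SE 0.32, adjusted p = 0.0229). At 30 hpf Mtmmpc did not fall (0.26, SE 0.31, adjusted p = 0.741). Esd (L_var_24643), an esterase that also hydrolyses S-formylglutathione in other animals, was at 3.16, 10.9 and 5.02 CPM against 0.61 and 1.58 CPM (-2.55, SE 0.60). Esd fell at 24 hpf (-3.27, SE 0.47, adjusted p = 0.00118) and 30 hpf (-1.81, SE 0.44, adjusted p = 0.0275).

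GabrA (L_var_01288), a subunit of the receptor for the neurotransmitter GABA, was at 7.20, 15.5 and 11.6 CPM against 2.7 and 3.55 CPM (-1.87, SE 0.40, edgeR adjusted p = 0.277). Among the other times it fell at 30 hpf (-2.53, SE 0.35, adjusted p = 0.0004), from 43.5 to 7.5 CPM. Ache_21 (L_var_07062), of the cholinesterase family, was at 52.9, 37.3 and 60.7 CPM against 14.6 and 18.3 CPM (-1.61, SE 0.37, adjusted p = 0.308). It fell at 12 hpf by a narrow margin (-1.97, SE 0.38, adjusted p = 0.04999), and related copies may share its reads. Redt (L_var_09463) was at 5.69, 5.60 and 4.66 CPM against 1.39 and 0.493 CPM (-2.46, SE 0.51). Slc16a10L (L_var_25323), related to a carrier of aromatic amino acids in mammals, was at 0.87, 2.48 and 5.37 CPM against 0.26 and 0.0986 CPM (-3.86, SE 0.85), with 4 reads in the alizarin libraries together.

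**Figure D1:**
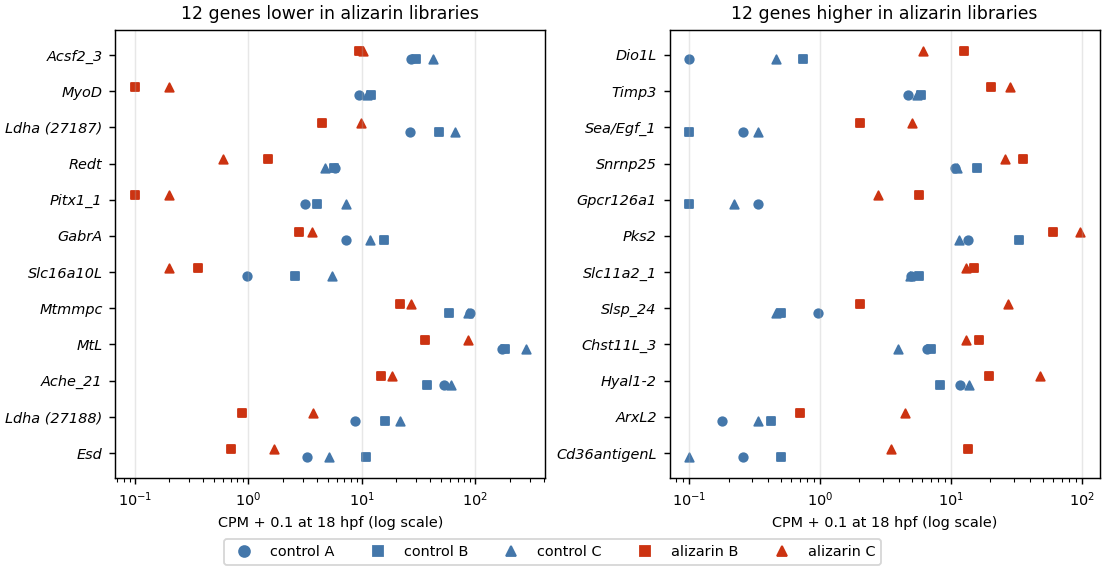
CPM plus 0.1 on a log axis of the 12 genes with the smallest p in each direction at 18 hpf, 1 point per library (blue control A, B and C, red alizarin B and C, the shape giving the replicate letter). By the rule that chose them no gene's groups overlap; MyoD and Pitx1_1 lie at 0 and 0.0986 CPM in alizarin libraries, and Slsp_24 and ArxL2 differ widely between alizarin B and C.

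Of the 12 genes chosen as higher, Timp3 (L_var_06196), an inhibitor of metalloproteinases held in the extracellular matrix, was at 4.59, 5.76 and 5.37 CPM in controls and at 20.3 and 28.1 CPM with alizarin. The log2 fold change was 2.2 (SE 0.50, edgeR adjusted p = 0.306, DESeq2 adjusted p = 0.0141). Timp3 rose at 24 hpf (3.16, SE 0.50, edgeR adjusted p = 0.00336) and 30 hpf (3.65, SE 0.53, adjusted p = 0.00068), but at 12 hpf its log2 fold change was -0.81 (adjusted p = 0.439).

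Pks2 (L_var_00620), a polyketide synthase whose counterpart in the urchin Hemicentrotus pulcherrimus has been tied to skeleton formation, was at 13.4, 32.9 and 11.5 CPM against 59.8 and 96.5 CPM. Control B was the highest control, and the log2 fold change was 2.02 (SE 0.52, edgeR adjusted p = 0.418). It rose at 24 hpf (2.92, SE 0.50, adjusted p = 0.00609) and 30 hpf (2.46, SE 0.50, adjusted p = 0.00977). In controls Pks2 went from a mean of 232 CPM at 12 hpf to 14.2 CPM at 24 hpf, and in alizarin embryos from 330.2 to 108 CPM.

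Dio1L (L_var_07919), related to the deiodinases that act on thyroid hormone in vertebrates, was at 0, 0.64 and 0.36 CPM in controls and at 12.4 and 6.02 CPM with alizarin (4.75, SE 1.02, edgeR adjusted p = 0.277). At 12 hpf its means were 1.66 and 21.5 CPM in control and alizarin embryos (adjusted p = 0.0732), and at 24 and 30 hpf every mean was under 1 CPM. Snrnp25 (L_var_02004), a protein of the minor spliceosome, was at 10.6, 15.7 and 11.0 CPM against 35.1 and 25.9 CPM (1.30, SE 0.31, adjusted p = 0.320). It had risen at 12 hpf (1.60, SE 0.29, adjusted p = 0.0474).

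Slc11a2_1 (L_var_06395), of the family that carries iron and other divalent metals, was at 4.82, 5.60 and 4.78 CPM against 15.0 and 12.8 CPM (1.45, SE 0.37, edgeR adjusted p = 0.418). Chst11L_3 (L_var_10787), related to chondroitin sulfotransferases, was at 6.41, 6.96 and 3.82 CPM against 16.2 and 13 CPM (1.34, SE 0.36). Hyal1-2 (L_var_21803), a hyaluronidase, was at 11.7, 8.16 and 13.7 CPM against 19.5 and 48.0 CPM (1.59, SE 0.45). By the rule that chose them, both alizarin libraries were above all controls in each. For Hyal1-2 the distance was mostly that of alizarin C, without which the log2 fold change was 0.76.

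The other 5 were nearly silent in controls. Gpcr126a1 (L_var_15408) had 4 reads in the 3 control libraries and was at 5.57 and 2.66 CPM with alizarin, and it rose at 24 hpf (5.69, SE 1.33, edgeR adjusted p = 0.0454). Sea/Egf_1 (L_var_22068) was at 0.16, 0 and 0.24 CPM against 1.91 and 4.93 CPM, and Cd36antigenL (L_var_00529), of the scavenger receptor family, at 0.16, 0.40 and 0 CPM against 13.4 and 3.35 CPM. For Slsp_24 (L_var_26721) and ArxL2 (L_var_25020), an aristaless-related homeobox gene, alizarin C carried most of the reads: 27.3 against 1.91 CPM in alizarin B, and 4.34 against 0.61 CPM. Without alizarin C their log2 fold changes went from 4.69 to 1.76 and from 3.47 to 1.44.

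**Figure D2:**
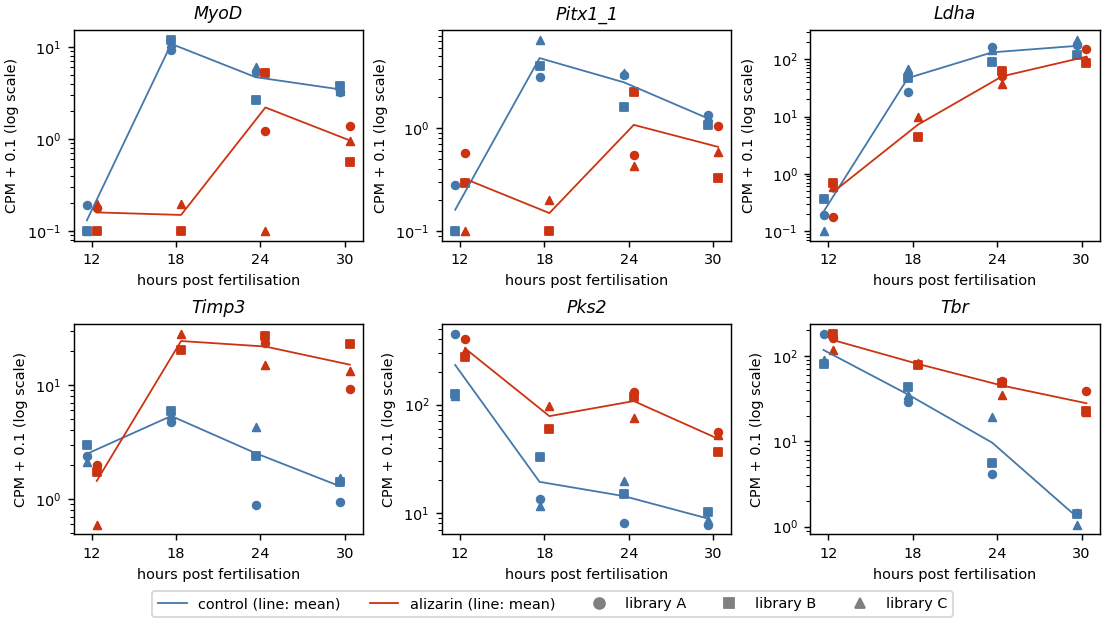
CPM plus 0.1 (log axis) of 6 genes against hours post fertilisation, 1 point per library with the mean of each group as a line (blue control, red alizarin; each panel has its own scale). MyoD and Pitx1_1 were read in controls at 18 hpf (9.25 to 11.8 and 3.08 to 7.17 CPM) and in alizarin libraries mainly from 24 hpf, Ldha (L_var_27187) climbed in both groups, and Timp3, Pks2 and Tbr were higher with alizarin at 18, 24 and 30 hpf.

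Of the spicule matrix list, proteins that the skeletogenic cells secrete into the mineral, 16 of 19 genes passed the filter on low counts, and 5 had an unadjusted p under 0.05, all of them lower with alizarin (3.31% of all genes tested were lower at that level). The median log2 fold change was -0.52, against -0.01 over all genes, and -0.51 without control C. Without alizarin B the lower members at that level were 3, and without alizarin C 2. The summed list was at 3373, 2682 and 6260 CPM in control A, B and C and at 2059 and 2356 CPM in alizarin B and C. Control C was the highest, and both alizarin libraries were below every control. Sm30A alone was at 1760, 1216 and 3393 CPM against 722 and 846 CPM, and the lack of overlap in the sums rested on that gene. The 5 were Clect_76, Sm30F, Sm30b, Clect_13 and C-lectin/PMC1.

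Clect_76 (L_var_22169), a C-type lectin gene of the list, was at 2.06, 0.48 and 2.63 CPM in controls and at 0 in both alizarin libraries, 54 reads against none. Taking 3 reads over the alizarin group as the limit that a count of 0 allows, it was at least 11.6-fold lower (edgeR adjusted p = 0.277). It fell at 24 hpf (-6.91, SE 0.69, adjusted p = 7.5e-05), from 51.5 to 0.40 CPM, and at 30 hpf (-6.77, SE 0.70, adjusted p = 2.6e-05).

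Sm30F (L_var_26911), a spicule matrix protein of the Sm30 family, was at 12.8, 5.60 and 13.4 CPM in controls and at 0.52 and 0.69 CPM with alizarin (-4.10, SE 1.23, edgeR adjusted p = 0.602). C-lectin/PMC1 (L_var_26903) was at 6.64, 10.2 and 24.7 CPM against 4.26 and 2.17 CPM (-2.09, SE 0.66, adjusted p = 0.608), and at -1.38 without control C. Neither gene overlapped between the groups, but both were chosen from their list for a small p in these same libraries. The lack of overlap thus adds no support, here and for the other list members named below for a small p. Both genes fell at 24 hpf (-7.80, SE 1.10, adjusted p = 0.00158 for Sm30F and -4.30, SE 0.61, adjusted p = 0.00118 for C-lectin/PMC1). Sm30 genes are near copies of each other, so their single levels are uncertain.

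The abundant matrix genes stood closer together. Sm30A (L_var_26913) was at 1760, 1216 and 3393 CPM in controls and at 722 and 846 CPM with alizarin (-1.44, SE 0.89, edgeR adjusted p = 0.928; -0.92 without control C). Sm50 (L_var_27181) was at 224, 195 and 426 CPM against 191 and 187 CPM (-0.58, SE 0.47, 95% interval -1.56 to 0.40), and its value was -0.15 without control C. Sm37 (L_var_27179) was at 414, 361 and 581 CPM against 380.3 and 468 CPM, groups that overlapped (-0.09, SE 0.45). Sm30A and Sm50 did not overlap, but the lowest control of Sm50, 195 CPM, lay just above the higher alizarin library, 191 CPM. Sm50 fell at 24 hpf (-2.04, SE 0.43, adjusted p = 0.0271).

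Of 39 genes of the skeletogenic cell surface and mineral enzymes 35 were tested. At an unadjusted p under 0.05, 2 (5.71%) were lower and 1 (2.86%) higher, against 3.31% and 2.36% of all genes. The median was -0.21 (-0.09 without control C). Cara7LA (L_var_04705), a carbonic anhydrase, of the enzymes that supply bicarbonate, was at 23.1, 21.4 and 32.5 CPM in controls and at 4.61 and 5.32 CPM with alizarin. The groups were far apart (-2.37, SE 0.71, edgeR adjusted p = 0.583), and it fell at 24 hpf (-3.30, SE 0.61, adjusted p = 0.0112) and 30 hpf (-2.92, SE 0.60, adjusted p = 0.0113). Msp130 (L_var_22165), the surface glycoprotein that marks these cells, overlapped at 741, 562 and 1087 CPM against 1107 and 633 CPM (0.13, SE 0.40). Msp130r4 (L_var_22341) overlapped too, at 2.93, 4.64 and 8.84 CPM against 2.09 and 3.16 CPM (-1.05, SE 0.45), and its value was -0.53 without control C.

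Transcription factors of the skeletogenic cells had a median above 0. Of 24 tested of 34, 4 had an unadjusted p under 0.05, 2 in each direction, where 2.36% of all genes were higher and 3.31% lower. The higher members were 0 without control A and 1 without either alizarin library, and the lower ones 0 without control C or without alizarin B. Of the list 7 did not overlap upwards and 3 downwards (11.1% and 10.3% of all genes), and the median was 0.29 (0.15 without alizarin B). Tbr (L_var_02106), a T-box factor at the head of the skeletogenic programme in other urchins, was at 29.0, 42.8 and 34.5 CPM in controls and at 79.6 and 82.4 CPM with alizarin (1.19, SE 0.46, edgeR adjusted p = 0.748). Tbr rose at 24 hpf (2.24, SE 0.44, adjusted p = 0.0182) and 30 hpf (4.51, SE 0.52, adjusted p = 7.7e-05), where control means had dropped to 9.55 and 1.21 CPM.

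Alx1 (L_var_16422), the factor that specifies these cells, was at 3.16, 5.84 and 6.33 CPM against 8.35 and 12.5 CPM (1.03, SE 0.57, edgeR adjusted p = 0.902, and 0.67 without alizarin C). Unlike Tbr, Alx1 had negative log2 fold changes at 24 hpf (-0.93, SE 0.51, adjusted p = 0.505) and 30 hpf (-0.54, SE 0.52, adjusted p = 0.676). Its paralogue Alx4 (L_var_16423) was at 2.85, 3.28 and 2.99 CPM against 10.2 and 5.03 CPM (1.32, SE 0.54), and at 0.72 without alizarin B. Both were without overlap. Snail (L_var_03074), which acts in the ingression of mesenchyme cells in this species, was at 12.0, 10.2 and 19.4 CPM against 5.92 and 5.72 CPM (-1.25, SE 0.47, adjusted p = 0.723), and a second gene of that name was also lower in both alizarin libraries.

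Of the list of patterning signals and receptors of the embryo, 71 of 82 genes were tested. Of these 2 (2.82%) had an unadjusted p under 0.05, both higher, where 2.36% of all genes were higher. Without overlap 11 were higher and 2 lower (11.1% and 10.3% of all genes). The list had a median of 0.15. The median was 0.10 without control C and 0.09 without alizarin B. Chordin (L_var_21973), the secreted BMP antagonist, was at 11.9, 12.2 and 12.5 CPM in controls and at 30.1 and 16.1 CPM with alizarin (0.92, SE 0.34, edgeR adjusted p = 0.723), and it rose at 30 hpf (1.32, SE 0.33, adjusted p = 0.0318). Dkk3 (L_var_20538), of the Dickkopf family of secreted proteins, was at 24.8, 22.7 and 29.7 CPM against 43.0 and 46.9 CPM (0.81, SE 0.32). The controls of Chordin lay close together and its alizarin libraries far apart, and without alizarin B its value was 0.39.

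The ligand Vegf3 (L_var_00379), which guides the skeletogenic cells, overlapped at 8.78, 12.7 and 6.21 CPM against 8.70 and 9.76 CPM (-0.01, SE 0.35, 95% interval -0.73 to 0.72). Its receptor gene Vegfr10 (L_var_00558) overlapped at 29.7, 42.4 and 16.5 CPM against 51.8 and 37.4 CPM (0.59, SE 0.35, 95% interval -0.14 to 1.32; 0.30 without control C and 0.34 without alizarin B). Wnt3 (L_var_02525) was at 16.6, 21.1 and 39.4 CPM against 6.61 and 21.0 CPM (-0.89, SE 0.47), with alizarin B alone below all controls. Its value was -0.45 without control C, -0.29 without alizarin B and -2.01 without alizarin C.

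Ectoderm regulators were centred on 0 (22 tested, median 0.00). A single member (4.55%) had an unadjusted p under 0.05 and was lower, where 3.31% of all genes were lower. That gene was Emx (L_var_19379), a homeobox gene, at 34.6, 52.3 and 40.7 CPM against 31.8 and 20.6 CPM (-0.70, SE 0.28, edgeR adjusted p = 0.764). Of 48 tested apical and neural genes 1 (2.08%) was higher and 2 (4.17%) lower at that level, against 2.36% and 3.31% of all genes. The median was -0.04, and 0.20 without control C. Brn3 (L_var_00516), a POU factor of sensory neurons in other animals, was at 17.1, 11.4 and 12.4 CPM against 1.74 and 7.69 CPM (-1.54, SE 0.48, adjusted p = 0.608), and without alizarin B the value was -0.83. FoxG (L_var_14141), a forkhead gene of the ciliary band in urchins, was at 92.4, 115 and 157 CPM against 60.3 and 79.9 CPM (-0.79, SE 0.40).

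In the endoderm list 46 genes were tested. At an unadjusted p under 0.05, 1 (2.17%) was higher and 2 (4.35%) lower, against 2.36% and 3.31% of all genes. The median of -0.18 turned to 0.15 without control C. Endo16 (L_var_26583), a secreted protein of the gut, overlapped at 459, 579 and 544 CPM against 484 and 717 CPM (0.19, SE 0.59). FoxI (L_var_19606) was at 2.93, 3.6 and 7.64 CPM against 1.04 and 2.27 CPM (-1.50, SE 0.57, edgeR adjusted p = 0.723; -0.98 without control C). Alpl_1 (L_var_22504), an alkaline phosphatase, was at 25.9, 21.2 and 24.7 CPM against 3.74 and 18.2 CPM (-1.13, SE 0.52), and without alizarin B its value was -0.39.

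Among 38 tested of 54 muscle and coelom genes 7 were lower with alizarin at an unadjusted p under 0.05 and 1 higher (3.31% and 2.36% of all genes), with a median of -0.25. Leaving out 1 library gave 4 to 6 lower members, the fewest without alizarin B. Beside MyoD they included FoxF, Pax6_1, FoxL1 and a pair of Actinin genes. FoxF (L_var_03689), a forkhead factor of coelomic mesoderm, was at 0.71, 0.56 and 0.24 CPM in controls and at 0 in both alizarin libraries, 18 reads against none, or at least 3.87-fold lower against the same limit of 3 reads (edgeR adjusted p = 0.629). Pax6_1 (L_var_16040), which in urchins marks coelomic pouch cells, was at 7.83, 20.6 and 7.64 CPM against 2.7 and 6.02 CPM (-1.47, SE 0.55, adjusted p = 0.723), and at -0.83 without control B. The groups of FoxF and Pax6_1 did not overlap, and the summed list stood at 1910 to 2320 CPM in controls and 1881 to 1894 CPM with alizarin.

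Pigment cell genes had a median of -0.34 over 57 tested, which was 0.02 without control C. This list was highest in that library: its sum was 16714 CPM there, 6811 and 6425 CPM in control A and B and 5941 and 8968 CPM in alizarin B and C. Pks1 (L_var_23510), the polyketide synthase of the pigment pathway, was at 1308, 904 and 2860 CPM against 1133 and 1118 CPM, and Gcm (L_var_24790), the factor that specifies pigment cells, at 67.5, 68.4 and 219 CPM against 65.3 and 79.6 CPM. Their log2 fold changes of -0.59 and -0.71 turned to 0.02 and 0.09 without control C, so both rested on that library.

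Sulfotransferase genes of the pigment list lay on both sides of the controls. Sult1c (L_var_21196) was at 8.46, 10.8 and 15.3 CPM in controls and at 1.39 and 1.28 CPM with alizarin (-3.09, SE 0.85, edgeR adjusted p = 0.458, DESeq2 adjusted p = 0.0227). Its log2 fold changes at 24 and 30 hpf were 0.58 and 0.45 (edgeR adjusted p = 0.809 and 0.797). Sult1a (L_var_19222) was at 21.5, 23.6 and 27.2 CPM against 63.9 and 110.5 CPM (1.85, SE 0.58, edgeR adjusted p = 0.608). Neither overlapped, and related copies may share reads. In the pigment list 5 genes (8.77%) were lower and 2 (3.51%) higher at an unadjusted p under 0.05, against 3.31% and 2.36% of all genes. The 2 higher ones were Sult1a and Pks2, the gene described above whose counterpart has been tied to skeleton formation. Leaving out control A, B or C gave 3, 3 and 2 lower members. The list median was -0.29 without alizarin B and -0.70 without alizarin C. The blastocoelar and immune list, with 42 tested, had 1 (2.38%) higher and 2 (4.76%) lower at that level and a median of 0.18.

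Among cilia genes 79 were tested, of which 4 were higher with an unadjusted p under 0.05 and 2 lower (2.36% and 3.31% of all genes). Without overlap 15 were higher and 4 lower (11.1% and 10.3% of all genes), and the median was 0.11 (0.00 without alizarin B, where 0 members were higher at that level). Bbs7 (L_var_00704), a subunit of the BBSome that carries cargo into cilia, was at 3.72, 2.16 and 1.91 CPM against 9.92 and 4.93 CPM (1.5, SE 0.52, edgeR adjusted p = 0.654; 0.91 without alizarin B). Dnah1_3 (L_var_17485), a dynein heavy chain of the axoneme, was at 33.5, 34.8 and 56.2 CPM against 75 and 61.1 CPM (0.71, SE 0.29, adjusted p = 0.764). Tektin2 (L_var_24963), a filament protein of the axoneme, overlapped at 373, 341 and 449 CPM against 505 and 356 CPM (0.15, SE 0.30).

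Catalase (Cat, L_var_26602) overlapped between the groups, at 98.5, 82.5 and 135 CPM in controls and 71.7 and 97.8 CPM with alizarin. The log2 fold change was -0.31 (SE 0.31, 95% interval -0.95 to 0.32, edgeR adjusted p = 0.980) and -0.09 without control C. Over 58 antioxidant and reactive oxygen genes tested the median was -0.11 (0.06 without control C). A single one (1.72%) had an unadjusted p under 0.05, where 2.36% of all genes were higher and 3.31% lower. That gene was Gpx1 (L_var_26059), a glutathione peroxidase that reduces peroxides, higher with alizarin, with 7 reads in the controls (0, 0.16 and 0.60 CPM) against 2.96 and 0.79 CPM. Nox4 (L_var_09400), of the oxidases that produce hydrogen peroxide, overlapped at 22.8, 30.1 and 27.5 CPM against 27.1 and 18.9 CPM (-0.22, SE 0.35).

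Xenobiotic enzymes and transporters were the longest list, with 297 tested of 357, of which 26 were lower at an unadjusted p below 0.05 (3.31% of all genes) and 7 higher (2.36%), and the median was -0.17. The 26 were 15 without alizarin B, 17 without control A and 22 without control C. Abcb4b (L_var_22509), of the efflux transporter family, was at 3.08, 2.0 and 3.94 CPM against 0.52 and 0.39 CPM (-2.66, SE 0.70, edgeR adjusted p = 0.418), and it fell at 24 hpf (-2.11, SE 0.47, adjusted p = 0.0345) and 30 hpf (-1.81, SE 0.46, adjusted p = 0.0363). Cyp2L52 (L_var_25083), a cytochrome P450, was at 3.48, 2.0 and 6.21 CPM against 0.87 and 0.49 CPM (-2.47, SE 0.65). Cytochrome P450, sulfotransferase and glucuronosyltransferase genes were among the lower members, and many have near copies that may share reads.

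Heat shock and folding genes had 1 (1.35%) higher and 3 (4.05%) lower of 74 tested at an unadjusted p under 0.05. Of all genes 2.36% were higher and 3.31% lower. The list had a median of 0.12. Dnajc7L (L_var_02277), related to a co-chaperone, was at 26.5, 24.3 and 45.5 CPM against 3.22 and 10.8 CPM (-2.20, SE 0.55, edgeR adjusted p = 0.393; DESeq2 adjusted p = 0.0121). Hsp40B (L_var_18330), a co-chaperone of the Hsp70 system, was at 30.7, 20.3 and 31.8 CPM against 13.1 and 13.1 CPM (-1.07, SE 0.36). Neither gene overlapped between the groups. Of 49 DNA damage and apoptosis genes 1 (2.04%) had an unadjusted p under 0.05 and was higher. It was Trp53bp1 (L_var_11372), which acts at DNA double-strand breaks, at 4.59, 5.84 and 2.75 CPM against 9.22 and 9.56 CPM (1.09, SE 0.42, edgeR adjusted p = 0.748).

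Cell cycle and replication genes stood near 0 (64 tested, median -0.05, 4 with an unadjusted p under 0.05, of which Pcna alone was lower). The shares were 4.69% higher and 1.56% lower, against 2.36% and 3.31% of all genes. The 3 higher ones were 0 without control C or without alizarin C, and the median was 0.04 without control C. Pcna (L_var_25876), the sliding clamp of DNA polymerase, was at 384, 449 and 629 CPM against 199 and 268 CPM (-1.06, SE 0.36, edgeR adjusted p = 0.642), with no overlap. Mcm8 (L_var_14266), a replication and repair helicase, was at 25.5, 27.2 and 23.5 CPM against 38.9 and 37.0 CPM (0.58, SE 0.25). Both were chosen for a small unadjusted p, so their intervals clear of 0 follow from the choice and add no support. Neither passed over all genes.

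Ribosomal protein genes (81 tested) had a median of 0.07 that became 0.68 without control C and -0.48 without alizarin C, the pair of libraries with the high ribosomal share. Respiratory chain genes (60 tested) went from -0.03 to 0.38 without control C. The list of calcium, proton and bicarbonate handling had 101 tested genes and a median of -0.18. An unadjusted p under 0.05 was reached by 1 higher gene (0.990%) and 6 lower genes (5.94%). These shares were 2.36% and 3.31% over all genes. By sign alone 39 members were above 0 and 62 below. Leaving out 1 control library gave 6 or 7 lower members at that level. The median was -0.09 without control C, -0.15 without alizarin B and -0.27 without alizarin C. Atp6v0a1 (L_var_23319), a subunit of the proton pump V-ATPase, was at 26.7, 35 and 31.1 CPM against 13.1 and 19.2 CPM (-0.93, SE 0.31, edgeR adjusted p = 0.629). Calm2 (L_var_13375), a calmodulin, was at 73.9, 69.9 and 109 CPM against 41.6 and 49.7 CPM (-0.89, SE 0.31, adjusted p = 0.645).

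Collagen and matrix protease genes had 2 (2.56%) higher and 4 (5.13%) lower of 78 tested at an unadjusted p under 0.05. The list median was -0.03, and 2.36% of all genes were higher and 3.31% lower. Timp3 was among the higher ones, while Timp2 and Timp3b of the same inhibitor family were among the lower. Mmp16 (L_var_05354), a membrane-bound metalloproteinase, was at 23.9, 22.7 and 29.9 CPM against 7.74 and 7.30 CPM (-1.76, SE 0.59, edgeR adjusted p = 0.629).

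**Figure D3:**
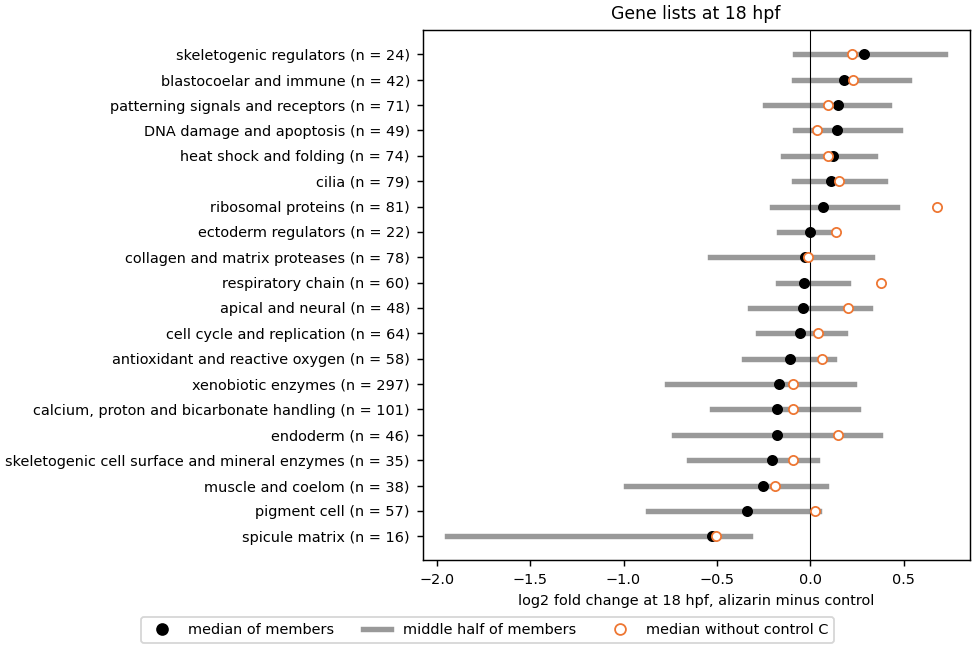
Log2 fold change at 18 hpf of the 20 gene lists: black points are medians over tested members (n in brackets), grey bars span the middle quartiles, and open points are medians without control library C. The spicule matrix list lay lowest (-0.52, and -0.51 without control C), while the pigment cell list moved from -0.34 to 0.02 and the ribosomal protein list from 0.07 to 0.68.

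The genes called at the other hours were then read at 18 hpf. Those contrasts compare other libraries, but the 18 hpf libraries share the filter, the scaling and the estimate of spread of the 1 fit. The calls were therefore repeated without the 18 hpf libraries, an alternative chosen after seeing the data, and its values stand beside the results. Of the 22 genes that rose at 24 hpf (0.119% of genes tested), 12 were higher at 18 hpf at an unadjusted p under 0.05 and 0 lower, where 2.36% of all genes were higher. Their median log2 fold change at 18 hpf was 0.90, and 0.62 to 1.02 when 1 library was left out. Without the 18 hpf libraries 22 genes were again called as higher at 24 hpf, 17 of them the same genes, and 10 of those 22 were higher at 18 hpf at that level and 0 lower (median 0.79). Timp3, Pks2, Gpcr126a1, Tbr and Nfkbil1L were among them. Nfkbil1L (L_var_23596), related to an inhibitor of NF-kappa-B, was at 5.77, 7.04 and 4.54 CPM against 14.9 and 17.3 CPM at 18 hpf (1.47, SE 0.43, edgeR adjusted p = 0.556).

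Of the genes that fell at 24 hpf (0.722% of genes tested), 34 (25.6% of them) were lower at 18 hpf at an unadjusted p under 0.05 and 2 (1.5%) higher, where 3.31% of all genes were lower and 2.36% higher. In 49 (36.8%) both alizarin libraries lay below all controls and in 3 above, against 10.3% and 11.1% of all genes. Their median was -0.58, and it was -0.46 without control C and -0.93 without alizarin C. Of the genes called as lower at 24 hpf without the 18 hpf libraries, 106 in common with the first set, 39 (29.1%) were lower at 18 hpf and 1 higher (median -0.71). Acsf2_3, Mtmmpc, MtL, Esd, Clect_76, Sm30F, C-lectin/PMC1, Cara7LA, Abcb4b and Sm50 belonged to them. Of 18 genes named in the text and called at 24 hpf, 13 were called without the 18 hpf libraries; Acsf2_3, Gpcr126a1, Abcb4b, Nfkbil1L and Co5a1 were not (adjusted p 0.0544 to 0.0697). Of 3 called at 12 hpf Acsf2_3 alone was, and of 23 called at 30 hpf all but Abcb4b were.

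The genes called at 30 hpf stood closer to 0 at 18 hpf. The 207 that rose (1.12%) had a median of 0.21, which was 0.07 without alizarin B and 0.32 without control B. At an unadjusted p under 0.05, 21 of them (10.1%) were higher and 1 lower, where 2.36% of all genes were higher and 3.31% lower. By sign alone 143 were above 0 and 63 below. The 405 that fell (2.2%) had a median of -0.10, which was 0.01 without control C and -0.21 without alizarin C. At that level 40 of them (9.88%) were lower and 14 (3.46%) higher, and by sign alone 220 were below 0 and 181 above. Calls made without the 18 hpf libraries gave medians of 0.23 and -0.15, and calls made with replicate letters as a block 0.21 and -0.11. At 12 hpf 13 genes fell (0.0706%): all 13 had a negative log2 fold change at 18 hpf, 7 of them with an unadjusted p under 0.05, with a median of -1.33 (-0.75 without control C). The 5 that rose at 12 hpf (0.0271%), Snrnp25 among them, had a median of 0.01. The test of the difference between hours called 1 gene for 24 against 18 hpf (0.00543%) and 26 for 30 against 18 hpf (0.141%), Nox4 and Dnah1_3 among them. With the replicate block within each hour 38 genes differed for 30 against 18 hpf, 19 of them the same genes, and the adjusted p was 0.0307 for Dnah1_3 and 0.0801 for Nox4.

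**Figure D4:**
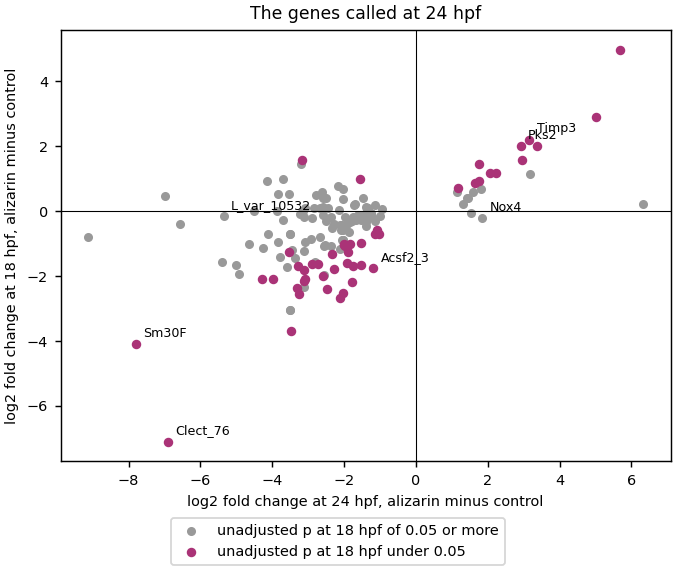
Log2 fold change at 18 hpf against that at 24 hpf (alizarin minus control) for the 155 genes called at 24 hpf, purple where the unadjusted p at 18 hpf was under 0.05. Of the 22 that rose at 24 hpf 20 were above 0 at 18 hpf, and of those that fell 75.9% were below 0; Nox4 and L_var_10532 lie near 0 at 18 hpf.

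The last comparison set the 18 hpf libraries between the control stages on both sides. In controls 3396 genes rose from 12 to 24 hpf (18.4%) and 2812 fell (15.3%), in a contrast without 18 hpf libraries from the same fit. At 18 hpf 332 of the rising genes (9.78%) were lower with alizarin at an unadjusted p under 0.05 and 45 (1.33%) higher, against 3.31% and 2.36% of all genes, with a median of -0.22 (-0.11 without alizarin B, -0.46 without alizarin C). Of the falling genes 101 (3.59%) were higher and 31 (1.1%) lower, with a median of 0.07 (-0.03 without alizarin B). Calls made without the 18 hpf libraries gave medians of -0.22 and 0.07. Acsf2_3, MyoD, Pitx1_1, both Ldha genes, MtL, Esd, Pcna and Dnajc7L were among the rising genes, and Pks2, Tbr, Chordin and Nfkbil1L among the falling ones.

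On a scale over these 6208 genes with 0 at the mean of controls at 12 hpf and 1 at that of controls at 24 hpf, control libraries A, B and C of 18 hpf lay at 0.626, 0.578 and 0.632. Alizarin libraries B and C lay at 0.407 and 0.568. Both were below every control, but alizarin C lay close to control B. The means differed by -0.124 (alizarin 0.488 ± 0.114, SD, n = 2; control 0.612 ± 0.0299, SD, n = 3; exact permutation test, two-sided p = 0.2, the smallest that 10 splits of 5 libraries allow by doubling the smaller tail). At 24 hpf the alizarin libraries lay at 0.769, 0.795 and 0.681, and the controls that set the scale at 0.976, 1.05 and 0.976.

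**Figure D5:**
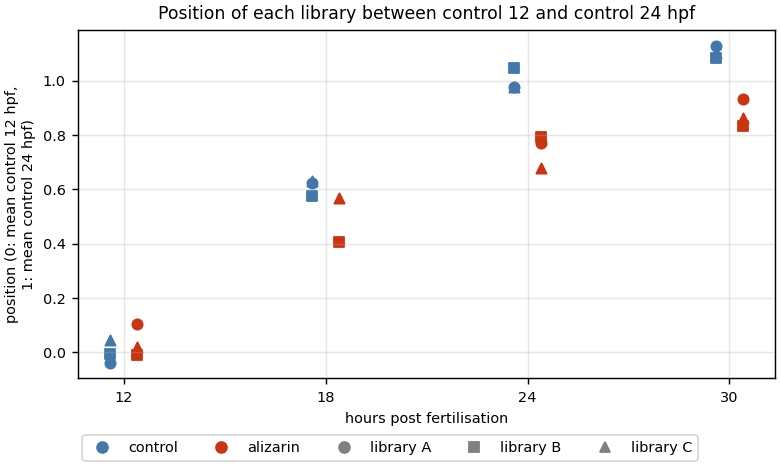
Position of each of the 23 libraries between the control means of 12 hpf (0) and 24 hpf (1), over 6208 genes, against hours post fertilisation (blue control, red alizarin, shape for the replicate letter). At 18 hpf the controls lie at 0.578 to 0.632 and the alizarin libraries at 0.407 (B) and 0.568 (C); controls at 12 and 24 hpf define the scale.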

How the data were processed

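Whole-embryo RNA was extracted with TRIzol and made into mRNA libraries with a DNBSEQ kit, per the labels' protocols, and aligned with STAR 2.7.1a, per the submitters' processing notes. The genome build, the annotation and the counting tool are not given in the sources used here. The authors deposited raw read counts per gene and library (whole numbers, per the file headers). The table repeats a gene for each protein match, so its 109578 lines were reduced to 27232 gene IDs, of which 1 was dropped for unreadable counts. It pairs 21650 IDs with a symbol of the matched Strongylocentrotus purpuratus gene, and 13076 IDs share a symbol, so reads of near copies may be split. No positions or sequences are given.

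Genes were filtered with edgeR 4.0.16 (filterByExpr, minimum count 10), which left 18419. Counts were scaled by TMM, and 8 group means were fitted to all 23 libraries by robust quasi-likelihood (common biological coefficient of variation 0.423, with 15 degrees of freedom left for the residuals). The alizarin contrast at each hour, differences between hours, and control 24 minus control 12 hpf were tested. P-values were adjusted by Benjamini-Hochberg across every gene tested, genes under 0.05 were called, and SE was the size of the log2 fold change over the root of F. DESeq2 1.42.0, other scalings and filters, the 18 hpf libraries alone, replicate blocks and each library left out were alternatives, and calls of the other hours without the 18 hpf libraries were added later. R 4.3.3, limma 3.58.1, Python 3.11.15, scipy 1.17.1, pandas 2.3.3, numpy 2.4.6 and matplotlib 3.10.9 were used. The test was tried on simulated counts with less spread than these libraries, so that run does not measure its power here. Intervals for read ratios cover counting error only.

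The comparison, the 20 gene lists and the rule for named genes were chosen with earlier results of these data known. The rule took the 12 smallest p in each direction (informative symbol, at least 2 CPM in one group, no overlap), up to 3 members per list, Cat and the leading skeletal genes, and up to 4 genes per direction called later. The text gives most of these. Other list members were named after their values were seen, and so were the genes of the difference between hours.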

Additional observations from a re-analysis of the deposited data

Results flagged for a closer look

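The alizarin effect at 30 hpf differed from that at 18 hpf in 26 genes (0.141% of those tested; edgeR test of the difference of log2 fold changes, adjusted p under 0.05), and that at 24 hpf from 18 hpf in 1 gene (0.00543%). No explanation was tested for any of them.

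Dnah1_3, Dnah9L and Dnhd1L, which are named for dynein heavy chains, were among the 26, and no claim is made for dynein genes as a group. For Dnah1_3 (L_var_17485) the effect was 0.71 at 18 hpf and -1.67 at 30 hpf, a difference of -2.39 (SE 0.39, edgeR adjusted p = 0.0125). Dnah9L (L_var_15732) was at 11.4, 15.6 and 14.2 CPM in controls and 18.8 and 16.5 CPM with alizarin at 18 hpf, and its effects differed by -2.07 (SE 0.37, adjusted p = 0.0255). Dnhd1L (L_var_20551), related to the dynein heavy chains, was at 13, 10.6 and 12.4 CPM against 16.6 and 23.9 CPM, with a difference of -2.62 (SE 0.44, adjusted p = 0.0158).

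Nox4 (L_var_09400) was at -0.22 at 18 hpf and rose at 30 hpf (2.32, SE 0.35), a difference of 2.53 (SE 0.50, edgeR adjusted p = 0.0455, and 0.0801 with the replicate block within each hour). Both FoxQ2_1 genes, which encode a forkhead factor of the apical plate and may share reads, overlapped or nearly so at 18 hpf. L_var_17031 was at 78.5, 78.3 and 142 CPM against 102 and 144 CPM, and L_var_17029 at 76.9, 114 and 140 CPM against 157 and 192 CPM. Their effects at 30 minus 18 hpf were 4.51 (SE 0.88) and 4.45 (SE 0.88), each with an adjusted p of 0.0455.

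Hypp_2760 (L_var_17039), with no assigned role, was at 124, 158 and 199.9 CPM against 246 and 306 CPM at 18 hpf, and its effects differed by 3.74 (SE 0.38, edgeR adjusted p = 5.8e-05). Notum (L_var_09389), which inactivates Wnt ligands, was at 12.3, 12.5 and 13.5 CPM against 27.7 and 16.5 CPM, with a difference of -2.45 (SE 0.48, adjusted p = 0.0443, and 0.0752 with the block). Co5a1 (L_var_06443), named for a collagen, was at 2.06, 1.92 and 2.39 CPM against 3.31 and 3.55 CPM, with a difference of -5.05 (SE 0.76, adjusted p = 0.00868). L_var_10532, without a symbol, overlapped at 7.75, 5.28 and 10.4 CPM against 2.78 and 11.3 CPM at 18 hpf. Its effect was lower by 5.21 log2 units at 24 hpf (difference -5.21, SE 0.80, adjusted p = 0.0438) and its difference at 30 hpf was -4.99 (SE 0.79, adjusted p = 0.0124).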

How the results depend on the processing

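Of 14 alternatives, 12 left 0 genes called at 18 hpf by edgeR. DESeq2 called 51, and its counts at an unadjusted p under 0.05 were 386 higher and 849 lower. The stricter filter left 276 higher genes at that level. Leaving out 1 library gave 0 calls each time, 359 to 449 higher and 358 to 730 lower genes, with the fewest lower ones without alizarin B. Medians of genes called at 24 hpf as lower ranged from -0.93 to -0.46, of genes rising from 12 to 24 hpf in controls from -0.46 to -0.11, and of falling ones from -0.029 to 0.093.

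Same-lettered libraries of 18 hpf, 2 pairs, deviated together only weakly (r = 0.082 for B and 0.112 for C), and the letters were not taken to pair them. At 12 and 24 hpf same-letter values ran from -0.242 to 0.192, but at 30 hpf they were 0.503, 0.663 and 0.570, all above every pair of different letters. The letters may pair the samples there, but the labels do not state it. Deviations within a group sum to 0, so high same-letter values push the other values down. With 2 alizarin libraries at 18 hpf their deviations mirror each other, so that hour is not a like check. The block within each hour, read for 30 hpf after seeing the data, called 224 higher and 515 lower genes at 30 hpf against 207 and 405, and all 23 genes named in the text and called there were called again. The 30 minus 18 hpf difference of Nox4 and Notum did not pass with it. With the 18 hpf libraries alone, the fit with the replicate block called 45 genes, and both other fits with the block called 0. With the block the skeletogenic surface list had a median of -0.41 (block within each hour), the muscle and coelom list -0.13 (18 hpf alone), and Vegf3 a log2 fold change of 0.04 in all 3.

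The medians of 11 of 20 lists kept their sign without each library. When 1 library was left out the medians ran from -0.51 to -0.092 for the skeletogenic surface list, 0.063 to 0.30 for blastocoelar and immune, -0.49 to -0.19 for muscle and coelom, -0.20 to 0.062 for antioxidant and -0.32 to -0.094 for xenobiotic genes. The stricter filter gave 0.017 for blastocoelar and immune and -0.14 for muscle and coelom, and the 18 hpf libraries alone gave -0.14 for the latter.

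Of 81 genes with a printed or compared effect 71 kept their sign in the 5 fits that left out 1 library. The others ranged from -0.29 to 0.13 (Sm37), -0.33 to 0.43 (Msp130), -0.22 to 0.30 (Vegf3), -0.16 to 0.44 (Endo16), -0.89 to 0.02 (Pks1), -0.99 to 0.09 (Gcm), -0.12 to 0.34 (Tektin2), -0.19 to 0.44 (ElavL), -1.52 to 0.54 (L_var_10532) and -0.02 to 0.65 (FoxQ2_1, L_var_17031). The causes were not tested. Totals were 9404030 to 10092561 counts a library, and what sets the width of the intervals was not tested.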
